A study of Mus musculus with 360 samples.

Results

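Hmgcs1, Idi1, Fdps, Fdft1, Sqle, Lss and Cyp51 encode enzymes of the pathway that builds cholesterol from acetyl-CoA, and Insig1 encodes a protein that restrains it. These 8 genes, named by their symbols, were 8 of the 24781 genes in the expression table, and each was read in 360 single cells of the mouse line C1498. The line is labelled as acute myeloid leukemia, cells were warmed for 10 min and then imaged, and an automated instrument picked single cells for RNA counting. The heated arm (45 °C) held 6 cells picked 1 h before heating, then 13 cells at 1 h after it, 52 at 10 h and 21 at 15 h, while the cells at 5 h made up 61.9% of all 360. The control arm (37 °C for the same 10 min) held 11, 11, 6, 6 and 11 cells at those times. All groups share the line and the picking system, and no label names a culture, a clone or a day. Each temperature and time was therefore read as 1 sample, with no p-value, and every 95% interval covers counting error only.

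Cholesterol synthesis runs from acetyl-CoA through mevalonate and isoprenoid units to squalene, lanosterol and cholesterol. Most of its enzymes are transcribed under SREBP2, a factor held in the endoplasmic reticulum by the sterol sensor SCAP bound to an INSIG protein when sterols are plentiful. When sterols run low the complex moves to the Golgi apparatus, SREBP2 is cut free, and the genes are switched on together. Insig1 is itself a target of SREBP, which makes it both a brake and a readout. Dividing blood cells draw on the same pathway for membranes and for the isoprenoid groups attached to proteins.

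The depth was uneven. The median cell held between 18741 molecules (UMIs, each a counted RNA molecule), in the 45 °C 10 h group, and 40544 UMIs, in the 37 °C group before heating. Rn45s, the ribosomal RNA precursor, took 10.6% to 15.96% of a group's UMIs, and the cells in which it took over 25% were 9 at 45 °C 5 h, 8 at 45 °C 10 h and 3 at 45 °C 15 h. The unheated cells, which are the 37 °C cells of all times with the 45 °C cells before heating, carried the leukocyte RNA Ptprc at 501.5 CPM (counts per 1e6 UMIs of the group). Of the 4 leukocyte markers listed, Coro1a was at 1144 CPM and Laptm5 at 308.3 CPM there, and Cd52 was at 0 CPM. Of 9 myeloid markers, 2 had any UMI in heated cells (Mpo and Prtn3, summed to at most 2.94 CPM) and 0 had one in unheated cells, so the defining myeloid RNAs of the labelled leukemia type were at or near 0. Of 11 T or NKT cell markers, 8 were in the table and 7 had UMIs, with summed levels of 317 to 470 CPM in heated groups and 363 to 479 CPM in unheated groups. In unheated cells nearly all of this was Cd3e (199.2 CPM) and Cd3g (230.1 CPM), and the other 6 were each at most 5.75 CPM.

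Promoters were read to show which known control letters stand beside the genes. RefSeq promoter entries (build GRCm38.p6) matched 5 of the 8 genes, Hmgcs1, Idi1, Lss, Cyp51 and Insig1. In the 250 bases before the RefSeq start, both strands were searched for TCACNCCAC (core of the sterol regulatory element), CCAAT (bound by NF-Y), GGGCGG (bound by Sp1) and GAANNTTC (core of the heat shock element). The sterol element letters were found in Hmgcs1 alone of the 5 and in 1.05% of 32851 mouse promoters. CCAAT was found in all 5 and in 33.8% of all promoters, and GGGCGG in all 5 and in 32.7%. The heat shock letters were found in Idi1 alone of the 5 and in 6.69% of all promoters. No match overlapped another in the 3 stretches below, which are shown because Hmgcs1 and Idi1 had the lowest heated-over-control ratios at 10 h and Insig1 is the pathway's regulator. Capitals mark the matches, the stretches end before the GENCODE gene start, and a match describes letters only.
Hmgcs1, chr13:119690101-119690350, plus strand: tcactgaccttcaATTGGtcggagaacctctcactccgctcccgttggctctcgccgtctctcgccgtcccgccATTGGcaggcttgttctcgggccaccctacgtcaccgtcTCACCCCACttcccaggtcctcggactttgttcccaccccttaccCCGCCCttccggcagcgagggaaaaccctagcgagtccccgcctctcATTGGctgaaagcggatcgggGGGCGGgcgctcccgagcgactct
Idi1, chr13:8885356-8885500, plus strand: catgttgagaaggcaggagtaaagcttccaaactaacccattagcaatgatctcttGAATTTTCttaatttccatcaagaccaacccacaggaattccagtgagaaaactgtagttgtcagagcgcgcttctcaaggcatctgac
Insig1, chr5:28071162-28071362, plus strand: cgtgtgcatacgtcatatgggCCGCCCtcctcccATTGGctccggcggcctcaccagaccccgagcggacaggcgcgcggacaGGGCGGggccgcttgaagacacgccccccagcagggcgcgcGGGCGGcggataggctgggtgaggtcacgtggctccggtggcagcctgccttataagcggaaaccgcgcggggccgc
In Hmgcs1 the sterol element letters lay midway in the stretch, between the CCAAT matches nearest to it on either side. The Idi1 stretch stops well before the RefSeq start, because the GENCODE gene begins there, so its 2 CCAAT matches and its GGGCGG match lie outside the letters shown.

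Taken as a sum, the 8 genes stood lowest of all 10 groups in the cells picked 10 h after heating. Along the heated arm the summed level was 664 CPM before heating, 684 CPM at 1 h, 442 CPM at 5 h, 177.1 CPM at 10 h and 525.8 CPM at 15 h. Along the control arm it was 636, 534.5, 535.3, 277 and 519.5 CPM at the same times. Both 10 h groups lay below the other 8 groups, which spanned 442 to 684 CPM. The interval of the heated 10 h group (152.2 to 206.01 CPM, from 173.5 UMIs) touched no other group's except that of the control 10 h group (204.25 to 367 CPM, from 48 UMIs). Ordered by level, only 1 pair of neighbouring groups had intervals that did not meet.

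**Figure D1:**
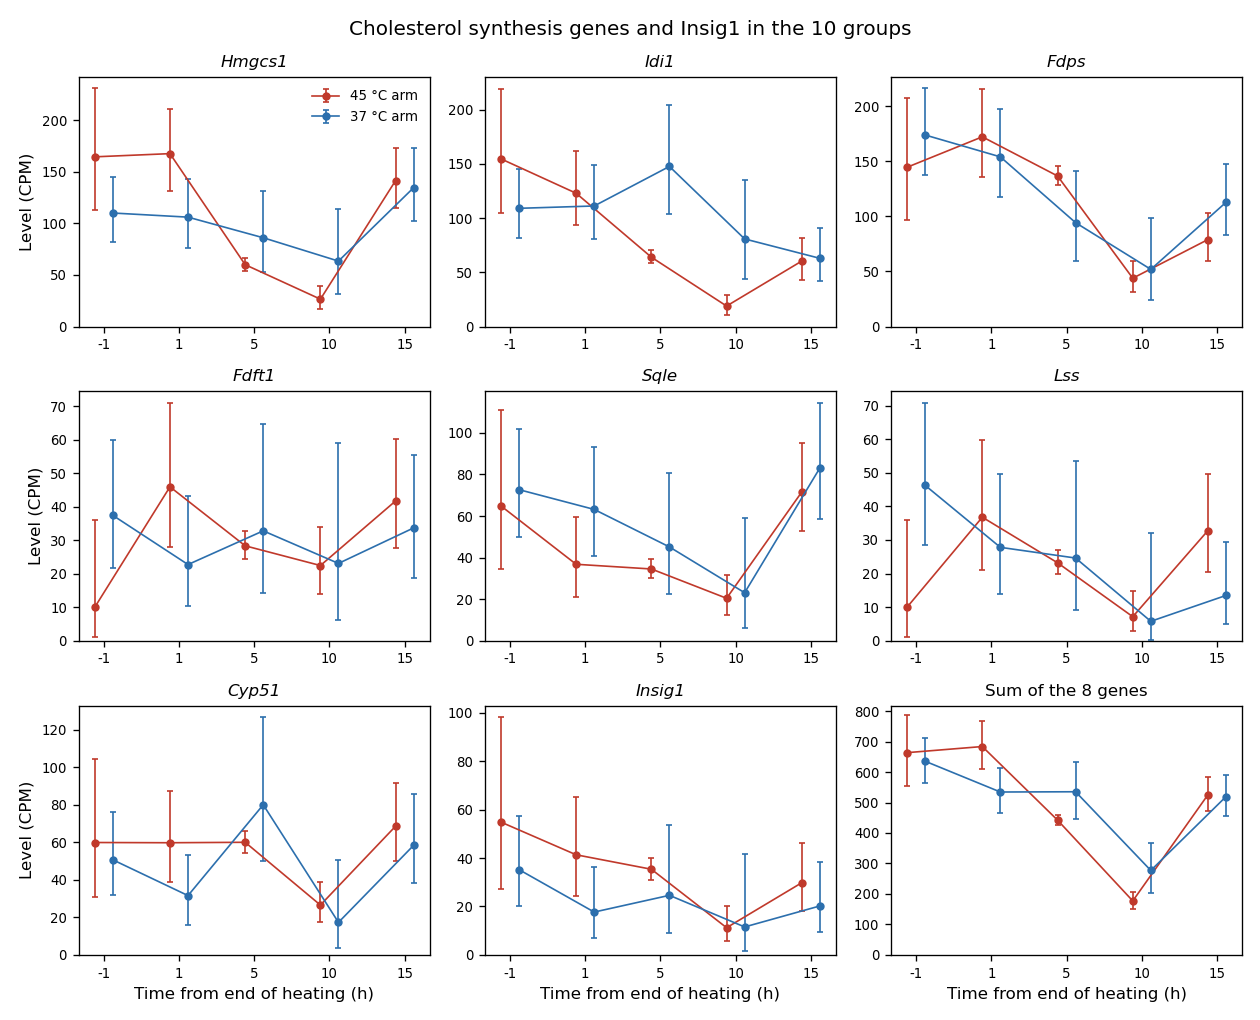
Level of each of the 8 genes and of their sum, in CPM, in the 5 groups of the heated arm (45 °C, red) and the 5 of the control arm (37 °C, blue) in order of time, with bars for the exact Poisson 95% interval of counting error. The heated 10 h group is the lowest of the 10 for Hmgcs1, Idi1, Fdps, Sqle and Insig1, and for Fdps, Sqle, Lss, Cyp51 and Insig1 the control 10 h group lies close to it.

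Hmgcs1 encodes the cytosolic synthase that makes HMG-CoA, an early intermediate of the pathway. Its gene lies on chromosome 13, from base 119690379 to 119708260 (mm10, plus strand), overlapping Gm48342 on the other strand. Its level in the heated arm was 164.7 CPM before heating, 167.8 CPM at 1 h, 59.99 CPM at 5 h, 26.5 CPM at 10 h and 141.7 CPM at 15 h. In the control arm it was 110.1, 106.1, 86.1, 63.5 and 134.8 CPM. The heated cells held less at 10 h than any of the 6 unheated groups, and at 15 h they were back among the upper groups. At 5 h they also held less, but without cell 1 of the 37 °C 5 h group (11 of its 21 UMIs) that group stood at 53.3 CPM, under the heated level. On the log2 scale, heated over control was 0.65 (0.09 to 1.24) at 1 h, -0.55 (-1.16 to 0.18) at 5 h, -1.30 (-2.33 to -0.09) at 10 h and 0.07 (-0.41 to 0.56) at 15 h. Before heating it already stood at 0.59 (-0.10 to 1.24), or -0.21 without cell 3 of the 45 °C group, and the 45 °C 1 h cells differed from the 45 °C cells before heating by 0.02 (-0.58 to 0.67). Several of these ratios rest on 1 cell. The 5 h ratio was 0.10 (-0.73 to 1.24) without cell 1 of the 37 °C 5 h group, and the 10 h ratio -0.44 (-1.74 to 1.41) without cell 3 of the 37 °C 10 h group, which held 6 of its 11 UMIs. The 1 h value against the 45 °C cells before heating was 0.81 (0.07 to 1.70) without cell 3 of those. With every cell thinned to 5000 UMIs the 1 h ratio was -0.24.

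Idi1 encodes the isomerase that converts the isoprenoid unit isopentenyl diphosphate to its reactive partner. The gene lies on chromosome 13, from base 8885501 to 8892451 on the plus strand, overlapping Gm48574 on the other strand. Its level in the heated arm was 154.7 CPM before heating, 122.96 CPM at 1 h, 63.96 CPM at 5 h, 18.9 CPM at 10 h and 60.4 CPM at 15 h. In the control arm it was 109.05, 111.2, 147.7, 80.8 and 62.9 CPM. The 5 h and 10 h intervals of the heated arm (58.2 to 70.3 and 10.9 to 29.03 CPM) lay wholly under those of the control arm (103.4 to 204.4 and 44.2 to 135.6 CPM). The log2 ratio was 0.14 (-0.44 to 0.77) at 1 h, -1.23 (-1.70 to -0.67) at 5 h, -2.11 (-3.23 to -1.02) at 10 h and -0.07 (-0.81 to 0.67) at 15 h. Idi1 had the lowest ratio of the 8 at 10 h, and without cell 5 of the 37 °C 10 h group (7 of its 14 UMIs) that ratio was -1.43 (-2.74 to 0.09). Without cell 1 of the 37 °C 5 h group (21 of its 36 UMIs) the 5 h ratio was -0.37 (-1.06 to 0.53). Values that are not whole numbers held 8.06% of its UMIs, against 25.9% over all genes.

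Fdps encodes the synthase of farnesyl diphosphate, the branch point between sterols and protein prenylation. It lies on chromosome 3, from base 89093588 to 89101959 on the minus strand. It gave 27.8% of all UMIs of the 8 genes, the largest share of any of them. The heated arm held 144.7, 172.4, 136.8, 43.9 and 79.05 CPM in order of time. The control arm held 174.03, 154.2, 94.3, 51.9 and 112.9 CPM. At 5 h the heated cells still lay inside the unheated range, while at 10 h they lay under it, beside the control cells of that time. Heated over control, its log2 ratio was 0.16 (-0.35 to 0.67) at 1 h, 0.51 (-0.06 to 1.20) at 5 h, -0.30 (-1.30 to 0.98) at 10 h and -0.51 (-1.09 to 0.08) at 15 h, with all 4 intervals spanning 0. Without cell 2 of the 37 °C 5 h group the 5 h ratio was 1.04 (0.31 to 2.01). Gm43738 and Gm22935 overlap it on the same strand. Whether counting separated overlapping genes, here or for the others, is not given in the sources used here.

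Fdft1 encodes squalene synthase, the first step committed to sterols. It lies on chromosome 14, from base 63145150 to 63179578 on the minus strand, overlapping Ctsb on the other strand. It held 9.98 (2 UMIs), 45.97, 28.3, 22.5 and 41.8 CPM along the heated arm. It held 37.5, 22.7, 32.8, 23.1 and 33.7 CPM along the control arm. Its 10 h levels were nearly equal in both arms and inside the range of the unheated groups, and its interval against control spanned 0 at all 4 times after heating.

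Sqle encodes squalene epoxidase, a rate-limiting oxidation after squalene. Its position is chromosome 15, from base 59315077 to 59331192 on the plus strand, with no overlapping gene. Its heated levels were 64.9, 36.8, 34.5, 20.4 and 71.6 CPM in order of time. The control levels were 72.7, 63.2, 45.1, 23.1 and 83.1 CPM. The heated level was under the control level at all 5 times. The log2 ratio was -0.77 (-1.78 to 0.18) at 1 h, where Sqle was the single gene of the 8 below control, and -0.31 (-1.76 to 1.83) at 10 h, or 0.20 without cell 2 of the 37 °C 10 h group.

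Lss encodes lanosterol synthase, which closes the sterol rings, and Cyp51 encodes the demethylase that acts on lanosterol. Lss lies on chromosome 10, from base 76531588 to 76557138 on the plus strand, overlapping 4930483K19Rik on the other strand, and Cyp51 on chromosome 5, from base 4081145 to 4104746 on the minus strand, overlapping Akap9 on the other strand. Lss held 9.98 (2 UMIs), 36.8, 23.2, 7.14 and 32.8 CPM along the heated arm. It held 46.3, 27.8, 24.6, 5.77 (1 UMI) and 13.5 CPM along the control arm. After heating Lss was lowest at 10 h in each arm, while at 15 h the heated cells were above control with a log2 ratio of 1.20 (-0.06 to 2.88), or 0.66 without cell 8 of the 45 °C 15 h group. Cyp51 held 59.9, 59.8, 59.99, 26.5 and 68.6 CPM along the heated arm. It held 50.7, 31.6, 79.99, 17.3 (3 UMIs) and 58.4 CPM along the control arm. Cyp51 was level in the heated arm through 5 h, and its intervals of 45 °C over 37 °C spanned 0 at all 4 times after heating. The log2 ratios were 0.89 (-0.06 to 2.10) at 1 h, -0.45 (-1.10 to 0.27) at 5 h, 0.42 (-1.09 to 2.98) at 10 h and 0.22 (-0.49 to 0.98) at 15 h. Without cell 1 of the 37 °C 5 h group the 5 h ratio was 0.59.

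Insig1 encodes the sterol-dependent retention protein of the endoplasmic reticulum. It lies on chromosome 5, from base 28071363 to 28078662 on the plus strand, with no overlapping gene. It held 54.9, 41.4, 35.4, 11.2 and 29.8 CPM along the heated arm. It held 35.2, 17.7, 24.6, 11.5 (2 UMIs) and 20.2 CPM along the control arm. Insig1 was lowest at 10 h in both arms, as the summed enzymes were. Its ratio at 1 h, 1.17 (-0.10 to 2.73), was the highest of the 8 at that time. Against the 45 °C cells before heating the 1 h cells stood at -0.43 (-1.57 to 0.82), or at 1.63 (-0.15 to 5.06) without cell 3 of that group, which held 9 of its 11 UMIs.

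At 1 h, 7 of the 8 genes were above control, beside 37% of the genes measured, and 1 was below. A change of at least 1.5-fold upward was seen for Hmgcs1, Fdft1, Cyp51 and Insig1 (4 genes), against 5.6% of 5264, and 1 gene, Sqle, was at least 1.5-fold lower, against 19.5%. Measured means at least 20 UMIs in both groups together and 10 CPM in 1 of them. The median log2 ratio of the 8 was 0.52, beside -0.14 for all measured genes, and the sum stood at 0.35 (0.10 to 0.62). Without 1 cell, Hmgcs1 (at the lowest 0.43), Fdft1 (0.50) and Sqle (-0.57) no longer differed by 1.5-fold. Against the 45 °C cells before heating the sum of the 1 h cells differed by 0.04 (-0.25 to 0.35), or by 0.54 (0.20 to 0.92) without cell 3 of that group.

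At 5 h the sum stood at -0.28 (-0.52 to -0.01). Idi1 was the 1 gene at least 1.5-fold lower, against 30.6% of all 7594 measured genes, and 0 were at least 1.5-fold higher, against 12.4%. The median of the 8 was -0.37 beside -0.23 for all genes, a share and a median near the background. The control 5 h group has 6 cells, and 1 of them, cell 1, gave 47.9% of that group's UMIs of the 8. Without that cell the sum turned to 0.28, so the direction at 5 h rests on it, and Idi1, at -0.37, was no longer 1.5-fold lower.

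At 10 h the sum stood at -0.66 (-1.11 to -0.15), a level 1.58-fold lower in heated cells. Hmgcs1 and Idi1 were the 2 genes at least 1.5-fold lower, against 19.1% of 6434 measured genes, and 0 were higher by that size, against 21.9%, so the count between the arms is near the background. Without cell 3 of the 37 °C 10 h group Hmgcs1 was at -0.44 and Idi1 alone remained. Of the 8, 6 were measured in this pair (Lss and Insig1 had too few UMIs), 7 were lower by any amount beside 49.7% of all genes, and the median was -0.30 beside 0.0030. With any single cell left out the sum ranged from -0.83 to -0.35. Without cell 5 of the 37 °C 10 h group it was -0.35 (-0.88 to 0.26), and without cell 3 of that group -0.46 (-0.96 to 0.12). Both values are under 1.5-fold, with intervals that span 0. Hmgcs1, Idi1, Fdps, Sqle and Insig1, 5 of the 8, stood below all 6 unheated groups, against 15.3% of measured genes. Leaving out a single 37 °C 10 h cell put that group at 40.1 CPM for Fdps, 14.5 CPM for Sqle or 6.94 CPM for Insig1, each under the heated level. Set against all 6 unheated groups together, the sum was -1.62 (-1.86 to -1.39), 8 of 8 genes were lower, beside 49.4% of all genes, and 7 were so by at least 1.5-fold, against 15.1%. The exception was Fdft1 at -0.34 (-1.14 to 0.38). That reference pools all times, so it does not set heating apart from time. The control 10 h cells, unheated, themselves stood below the 37 °C cells before heating, with a sum at -1.19 (-1.67 to -0.75).

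**Figure D2:**
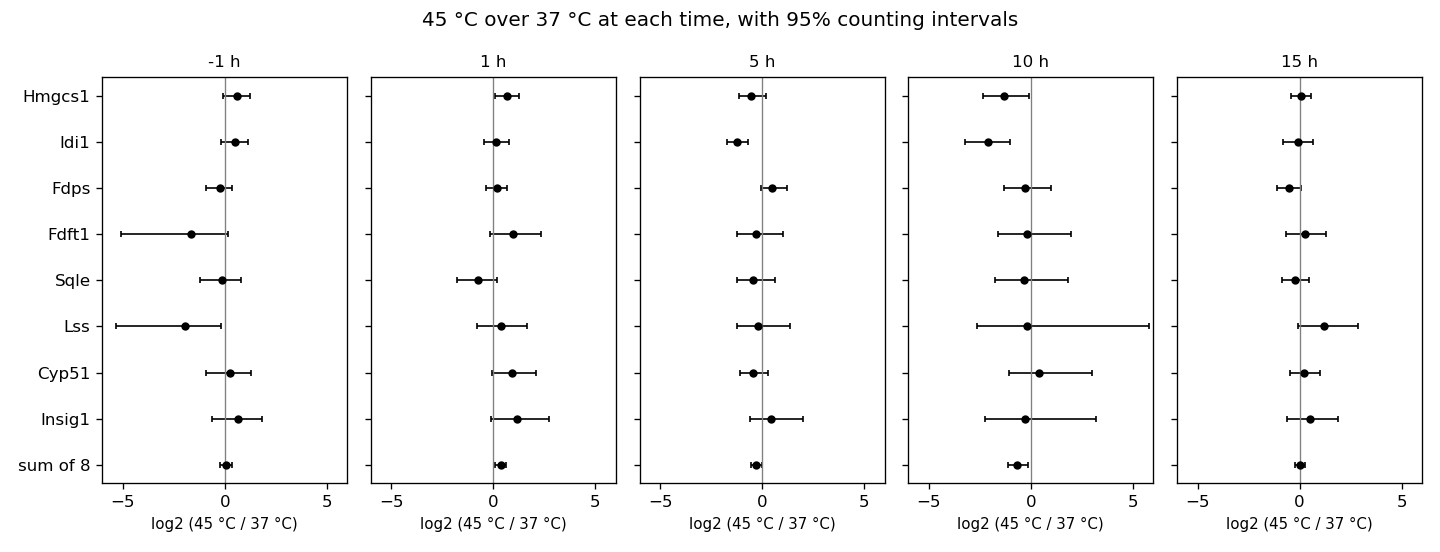
Log2 ratio of 45 °C over 37 °C for each of the 8 genes and their sum at each time, with the exact 95% interval of counting error and a line at 0. At 10 h the intervals of Idi1, Hmgcs1 and the sum lie under 0, while those of the other 6 genes span it. With a single control 10 h cell left out (cell 5 for Idi1, cell 3 for Hmgcs1, either for the sum), those intervals span 0 too.

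At 15 h the arms met again, with a sum at 0.02 (-0.23 to 0.26) and a median of 0.14 beside -0.02 for all genes. Lss was the 1 gene at least 1.5-fold higher, against 12.3% of 6340 measured genes, and 0 were lower by that size, against 11.8%. Without cell 11 of the 37 °C 15 h group Hmgcs1 was at 0.69 (0.15 to 1.29). When each cell had equal weight the sum turned to -0.90. In that reading cell 11 stands out with 5284 CPM (41 UMIs of the 8 among 7759), of which Hmgcs1 gave 22 UMIs. Before heating the sum stood at 0.07 (-0.24 to 0.37), or -0.44 (-0.81 to -0.09) without cell 3 of the 45 °C group. At that time 2 genes were at least 1.5-fold higher (11.7% of all genes) and 2 lower (12.8%). Of the 2 lower, Fdft1 had too few UMIs to be measured, 2 in the 45 °C cells against 17.

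Within the heated arm all 8 genes stood lower at 10 h than at 5 h and higher at 15 h than at 10 h. The 5 h cells already stood below the 1 h cells by -0.63 (-0.80 to -0.45), 8 of 8 were lower, beside 59% of all genes, and 4 (Hmgcs1, Idi1, Fdft1 and Lss) by at least 1.5-fold, against 19.6% of measured genes. Without 1 cell of the 1 h group Fdft1 was at -0.26 (cell 5) and Lss at -0.06 (cell 2). The 10 h cells stood below the 5 h cells by -1.32 (-1.55 to -1.10), a 2.49-fold difference. All 8 were lower, beside 32.8% of all genes, and 7 by at least 1.5-fold, against 6.54%. Idi1 had the largest difference of that step, -1.72 (-2.57 to -1.12), followed by Fdps at -1.62, and Fdft1 the smallest at -0.31 (-1.04 to 0.30). The median of the 8 was -1.37 while that of all genes was 0.24.

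The 15 h cells stood above the 10 h cells by 1.57 (1.30 to 1.83), a 2.96-fold difference, with 8 of 8 genes higher by at least 1.5-fold, against 13.2%. Hmgcs1 had the largest ratio, 2.40 (1.78 to 3.10), then Lss at 2.13 (0.92 to 3.67) and Sqle at 1.79 (1.03 to 2.64). Fdps, at 0.85 (0.24 to 1.46), had the smallest. The median was 1.52 beside -0.01 for all genes. No 1.5-fold difference of either step was lost with any single cell left out. Both steps use the same 45 °C 10 h cells, so a deviation of that group alone enters both with opposite signs.

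The control arm had a dip of the same shape from fewer molecules. Its 10 h cells stood below its 5 h cells by -0.94 (-1.45 to -0.46), with 8 of 8 lower, beside 45.5% of all genes, and 6 by at least 1.5-fold, against 12.4%, though only 4 of the 8 were measured. Its 15 h cells stood above its 10 h cells by 0.90 (0.45 to 1.39), with 7 higher, beside 49% of all genes, and 5 by at least 1.5-fold, against 14.1%. Idi1 was the exception at -0.39 (-1.34 to 0.68), and Cyp51 had the largest step down, -2.02 (-4.64 to -0.49). Only 5 of the 8 were measured at 15 h over 10 h. Lss, counted as at least 1.5-fold higher from 6 UMIs against 1, was not among them. Leaving out cell 1 of the control 5 h group brought the 10 h over 5 h value of the sum to -0.38, of Cyp51 to -0.99 and of Idi1 to 0.02. Whether the heated arm's dip was deeper than the control arm's was not tested.

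**Figure D3:**
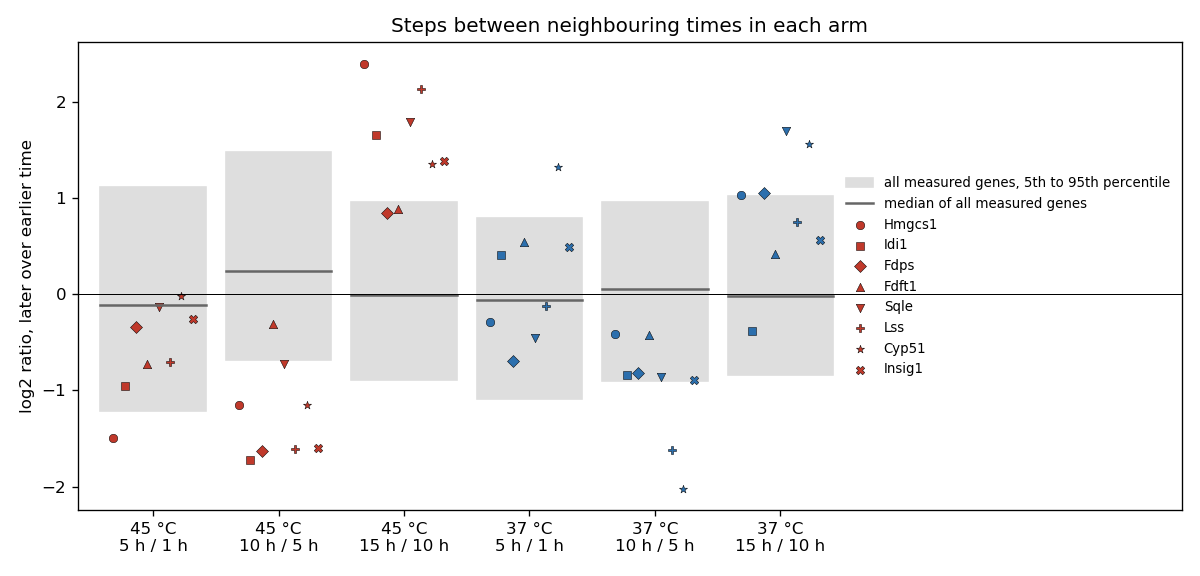
Log2 ratio of later over earlier time for each of the 8 genes (symbols), for the 3 steps after heating in the heated arm (45 °C, red) and the control arm (37 °C, blue), with a grey band for the 5th to 95th percentile of all measured genes and a line at their median. In the heated arm every gene lies below 0 at 10 h over 5 h and above 0 at 15 h over 10 h, and the control arm has the same signs there except for Idi1 in the last step.

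Depth and cell state differed at 10 h beside these results. The heated 10 h cells had a median of 18741 UMIs against 29604 UMIs in the control 10 h cells. The summed S phase RNAs were 2528 CPM against 3128 CPM, and the summed G2 and M phase RNAs 1813 CPM against 1834 CPM. Hsph1, a heat shock chaperone gene, was at 1409 CPM against 300.1 CPM. Without the cells over 25% Rn45s, or without cells under 5000 UMIs, no direction of the 8 genes' ratios changed. The part of depth, cell cycle or the heat shock response in the levels of the 8 was not tested.

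Cell by cell, the low level at 10 h was spread over the group. The summed level of the 8 in a heated 10 h cell was 0 CPM at the lowest, 152.55 CPM at the median and 523 CPM at the highest. In a control 10 h cell it was 102.9, 194.1 and 532 CPM. Heated 5 h cells, which were more numerous, ran to 2332 CPM with a median of 359.8 CPM. The 90th percentile was 790 CPM in heated 5 h cells and 341 CPM in heated 10 h cells. Cells without any UMI of the 8 numbered 6 at 45 °C 5 h, 12 of 52 at 45 °C 10 h and 2 of 21 at 45 °C 15 h. With each cell thinned to 5000 UMIs (5 cells of the heated 10 h group and 1 of the heated 5 h group were shallower and left out), 57.4% (27 of 47) of the 45 °C 10 h cells held a UMI of the 8. The thinned share was 79.7% at 45 °C 5 h, and 3 of 6 cells had one at 37 °C 10 h. Cells of a group are not replicates, so no interval is given for these shares. For Idi1 the thinned share was 8.51% at 45 °C 10 h and 23.9% at 45 °C 5 h, and for Fdps it was 17.02% at 45 °C 10 h and 43.7% at 45 °C 5 h.

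**Figure D4:**
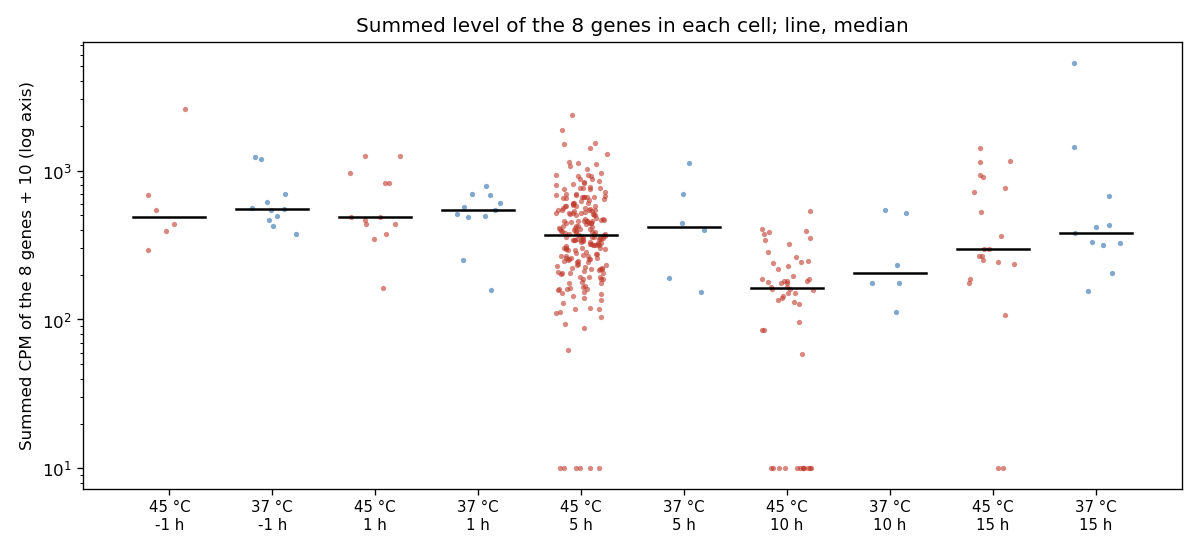
Summed level of the 8 genes in each cell (points), in CPM with 10 added on a log axis, for the 45 °C (red) and 37 °C (blue) cells of each time, with a line at each group's median. The medians at 10 h, 152.55 CPM at 45 °C and 194.1 CPM at 37 °C before the 10 is added, are the lowest, and cells without a UMI of the 8 lie on the floor of the plot at 45 °C 5, 10 and 15 h.

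Among the thinned heated 5 h cells, 7 of the 8 genes were frequent enough to be compared, giving 21 pairs. The median Spearman correlation over the pairs was 0.070, from -0.082 to 0.181, with 17 pairs above 0. All pairs of 5267 genes had a median of 0.004, with 52.4% above 0 and 17.2% above 0.070. These values share the sparse counts of the same cells and are a description. Across the 10 groups, the genes outside the 8 with the most similar course to the sum were Zfp106 (Pearson r of 0.88), Lyar (0.87), Trnt1 (0.82), Arf1 (0.81) and Tbca (0.80), of 1629 genes with a mean of at least 100 CPM. Zfp106 stood at 182.2 CPM in heated 10 h cells and 242 CPM in control 10 h cells, and between 235 and 324 CPM elsewhere.

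The other enzymes of sterol synthesis, 14 listed genes, were read along the same steps. At 5 h over 1 h in the heated arm 13 of 13 measured were lower, beside 59% of all genes, with a median of -0.62. At 10 h over 5 h 9 of 11 measured were lower, beside 32.8%, and 8 by at least 1.5-fold, against 6.54%, with a median of -0.80. At 15 h over 10 h 10 of 10 were higher, and 8 by at least 1.5-fold, against 13.2%, with a median of 1.32. Between the arms at 10 h, 7 were measured, 5 were at least 1.5-fold lower, against 19.1% of all genes, and 1 higher, against 21.9%, and the median was -1.12. In the control arm the same list stood at -0.07 (5 measured) at 10 h over 5 h, beside 0.05 for all genes. It stood at 0.16 (7 measured) at 15 h over 10 h, beside -0.01 for all genes.

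Lbr, a nuclear envelope protein with sterol reductase activity, held 324, 175.8, 167.8, 205.1 and 246 CPM along the heated arm and 245, 219.9, 166.1, 167.4 and 275 CPM along the control arm, so it was not lowest at 10 h.

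Genes of sterol uptake had no common direction as a list. Of 11 uptake and trafficking genes, 6 were measured at 10 h over 5 h in the heated arm. Of these, 3 were higher and 3 lower, beside 32.8% of all genes lower. The median was 0.27 beside 0.24 for all genes, and at 15 h over 10 h it was -0.52 beside -0.01. The list held 1 gene at least 1.5-fold higher (12.4% of all genes) and 3 lower (30.6%) between the arms at 5 h. Scarb1, which encodes a lipoprotein receptor, had the lowest ratio at 5 h, -1.97 (-3.10 to -0.35), from 6 UMIs in the control cells. Lipa, the lysosomal acid lipase gene, was at 10.6 CPM at 45 °C 5 h against 0 in the control cells, where 3 counts would be 12.3 CPM, and no fold is given.

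The fatty acid genes, known targets of SREBP1, had list medians near 0 at the late steps of the heated arm. Of 10 listed, 8 were measured at 10 h over 5 h there, 4 higher and 4 lower, beside 32.8% of all genes lower. The median was 0.04 beside 0.24 for all genes, and at 15 h over 10 h it was 0.07 beside -0.01. Acaca, the acetyl-CoA carboxylase gene, had the lowest ratio between the arms at 10 h, -1.78 (-2.65 to -0.83), at 30.6 CPM in heated cells against 103.9 CPM in control cells. Me1, which encodes the malic enzyme that supplies NADPH, stood at 50.01 CPM (49 UMIs) in heated 10 h cells against 0 UMIs in control 10 h cells, at least 2.89-fold higher with the floor of 3 counts in the control group. At 15 h its ratio was 2.01 (0.86 to 3.64). Elovl6, a fatty acid elongase gene, had the lowest ratio at 1 h, -0.98 (-1.73 to -0.29), and Scd2, a desaturase gene, stood at 191.9 CPM in heated 10 h cells against 103.9 CPM in control 10 h cells, with a ratio of 0.85 (0.19 to 1.67).

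The regulators were 12 listed symbols that include Srebf1, Srebf2, Scap and Insig2. Their median at 10 h over 5 h in the heated arm was 0.27, beside 0.24 for all genes. Between the arms at 10 h the median was 0.58, beside 0.0030 for all genes. Of 7 measured between the arms, 3 were at least 1.5-fold higher (21.9% of all genes) and 0 lower (19.1%). The isoprenoid branch genes act where isoprenoid units go to products other than sterols. Their median was 0.18 at that heated step, 10 h over 5 h, beside 0.24. Lists of this size hold few measured genes, and no list was tested against another.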

How the data were processed

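RNA was counted in 360 single cells. Lysed cells' RNA was broken by heating, copied from a barcoded oligo-dT primer with template switching and amplified, per the labels' protocols. The deposited table holds estimated counts of UMIs per gene and cell, not scaled by the authors in any way the values show, and 5.30% of its 1732996 values above 0 are not whole. The aligner STAR and the build mm10 come from lists, per the submitters' processing notes. Which program counted, with what annotation and strand setting, is not given in the sources used here. Cells held 1060 to 122196 UMIs, and 0 pairs of cells were identical.

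UMIs were summed per temperature and time, and CPM is the gene's share of the group's UMIs. Log2 ratios used 0.5 UMI added to each sum. Their 95% intervals are exact conditional binomial (Clopper-Pearson) intervals, and those of levels exact Poisson intervals, on sums rounded to whole UMIs. Python 3.11.15, numpy 2.4.6, pandas 2.3.3, scipy 1.17.1 and matplotlib 3.10.9 were used, and the steps were checked on simulated counts. All 8 genes are named, and of the other pathway genes the largest and smallest ratio at each time and the 2 with most UMIs, some of which are not reported here. The genes, lists and tests were chosen with earlier results of these data known. Gene positions are from GENCODE on mm10 and promoters from RefSeq on GRCm38.p6. Cells were thinned with a fixed seed. Alternatives covered the weighting of cells, the control used, thinning, scaling, fractional values, added UMIs, low-count filters and each cell left out. Leaving out cells over 25% Rn45s or under 5000 UMIs, and single cells in comparisons within an arm, was added after seeing the data.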

Additional observations from a re-analysis of the deposited data

Results flagged for a closer look

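In the 3 groups of 6 cells, 9 of 27 sets of values had a highest cell far from the others. The rule was Dixon's, the gap to the next cell over the range of the group. It marks about 1 set in 20 of normally distributed values by chance, a rate that does not hold for counts with many zeros. Of the 9 sets, 7 were the same cell, cell 3 of the 45 °C group before heating, and 1 of those 7 was the summed level itself. It held 2583 CPM of the 8 genes (48 UMIs, 36.1% of the group's). Its levels were 861 CPM for Hmgcs1, 484 CPM for Insig1, 323 CPM for Sqle and 269 CPM for Cyp51. Fdft1 and Lss were each at 53.8 CPM there, which is 1 UMI. In the 37 °C 10 h group, cell 3 held 127.3 CPM of Fdps (3 UMIs) and cell 5 held 33.3 CPM of Lss (1 UMI).

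Effects of opposite sign at different times were seen for Hmgcs1, with 0.65 at 1 h and -1.30 at 10 h, and for the sum, with 0.35 at 1 h, -0.28 at 5 h and -0.66 at 10 h, all as log2 ratios of 45 °C over 37 °C. The difference between these times was not tested.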

How the results depend on the processing

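No paired analysis was possible because the replicate numbers only name cells and no test was made. Values are log2 ratios of 45 °C over 37 °C unless a step in an arm is named. Of the main values recomputed, 280 stayed within the limit and 60 moved. Of the other values, for single genes, other gene lists and shares of all genes, 70 moved and 9 turned sign. A turned sign was counted only where the first value was at least 1.5-fold apart. Sign turns of smaller values were counted as moved or as within the limit. Thinned to 5000 UMIs, the sum was -0.91 at 5 h and -1.09 at 15 h, the median -1.20 and -0.81 at those times, and the steps of the sum were -1.01 (heated, 10 h over 5 h), 1.28 (heated, 15 h over 10 h), -1.65 (control, 10 h over 5 h) and 2.09 (control, 15 h over 10 h). At 10 h the thinned mean was 1.02 UMIs of the 8 per cell at 45 °C and 1.17 at 37 °C. The arms were further apart when thinned at 5 h (2.08 and 3.83) and at 15 h (2.48 and 5.27). Thinning turned Hmgcs1 and Cyp51 at 1 h to -0.24 each, and Lss at 15 h over 10 h to -0.060 (heated) and -0.87 (control). With the mean of per-cell CPM the sum at 15 h was -0.90, its median -0.76, and the control step 15 h over 10 h 1.66. Against the 45 °C cells before heating the sum after 1 h was 0.04, after 5 h -0.59, after 10 h -1.91 and after 15 h -0.34, Cyp51 at 1 h -0.034 and Insig1 at 1 h -0.43. Against all unheated cells the sum at 10 h was -1.62. With each cell left out, the sum ranged from -0.44 to 0.22 before heating, -0.54 to 0.28 at 5 h, -0.15 to 0.27 at 15 h and -1.24 to -0.38 for the control step 10 h over 5 h. Before heating Hmgcs1 ranged from -0.21 to 0.97 and Insig1 from -1.40 to 1.00, both lowest without cell 3 of the 45 °C group. Idi1 in that control step ranged from -1.52 to 0.018, highest without cell 1 of the 37 °C 5 h group. The causes were not tested.

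Counts of genes at least 1.5-fold apart moved as follows. Before heating, higher (2) became 4 with the per-cell mean, 1 with no UMI added and 0 at the lowest of single cells left out, and lower (2) became 4 when thinned and up to 4 with a cell left out. At 1 h, higher (4) became 2 against the 45 °C cells before heating, 2 when thinned and 2 with a cell left out, and lower (1) became 0 when thinned or with a cell left out. At 5 h, higher (0) became 1 with the per-cell mean, median-of-ratios scaling or whole-number values, and 2 against the 45 °C cells before heating or with a cell left out. Lower (1) became 2 with the per-cell mean, 1 UMI added or whole-number values, 3 against all unheated cells, 4 against the 45 °C cells before heating, 6 when thinned and 0 to 5 with a cell left out. At 10 h, higher (0) became 1 with no UMI added, when thinned or against the 45 °C cells before heating, and up to 2 with a cell left out. Lower (2) became 7 against all unheated cells or the 45 °C cells before heating, 4 when thinned and 1 with a cell left out. At 15 h, higher (1) became 2 against the 45 °C cells before heating, 0 against all unheated cells and up to 4 with a cell left out. Lower (0) became 5 with the per-cell mean, 3 against the 45 °C cells before heating, 2 against all unheated cells, 4 when thinned and up to 1 with a cell left out. With at least 200 UMIs per gene the share of all genes at least 1.5-fold lower was 2.22% (1 h), 17.3% (5 h), 9.55% (10 h) and 6.90% (15 h), and without a filter 29.3%, 48.3%, 31.4% and 19.3%. Without that filter 10 of the other sterol synthesis enzymes, in place of 5, were at least 1.5-fold lower at 10 h. Median-of-ratios scaling moved all genes by -0.14 at 1 h, -0.15 at 5 h and 0.21 in the heated step 10 h over 5 h. Control groups of 6 cells, with 48 UMIs of the 8 genes at 10 h, set the widest intervals.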
